A study of Mus musculus with 4 samples.

Results

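The phospholipid flippases and scramblases described here are 9 genes, taken as the rows of the deposited gene tables that carry the symbols Atp8a1, Atp8a2, Atp8b2, Atp8b4, Atp9b, Atp11a, Atp11b, Tmem30a and Xkr8, out of 16655 genes listed in both tables. The RNA came from microglia, which are brain-resident macrophages, isolated by fluorescence-activated sorting of the forebrain of C57BL/6 mice at embryonic day 14. Values were available for 1 library of Arid1acKO microglia (Arid1a cKO, replicate 2, 17262261 counted reads), which lack Arid1a conditionally, and for 2 libraries of Arid1afl/fl microglia (controls 5 and 6, with 18608979 and 13774075 reads), which carry the floxed allele without the deletion. Arid1a encodes a subunit of BAF, a complex that remodels chromatin. The driver of the deletion and the number of embryos behind a library are not given in the sources used here, and knockout replicate 1 was not analysed here. The 9 genes were chosen by the measured difference between the knockout and the controls, so that difference is described below without a test. Since the labels do not state separate animals, p-values given for other genes measure only the spread between these libraries, which may be technical.

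Cell membranes keep phosphatidylserine and phosphatidylethanolamine on the side that faces the cytosol. P4-ATPases are flippases that use ATP to move these lipids inward, and most of them need a Cdc50 subunit, chiefly Tmem30a, to leave the endoplasmic reticulum. Scramblases let lipids move freely in both directions, and the caspase-activated scramblase Xkr8 exposes phosphatidylserine on dying cells, a signal that microglia and other phagocytes read before engulfment.

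The library labels and cell identity were read first. Arid1a had 68.9 CPM (the read count scaled to library size, with factors from the trimmed mean of M values, TMM) in the knockout library, against 109 in control 5 and 130.4 in control 6. Its log2 fold change of -0.80 did not pass edgeR's quasi-likelihood test (adjusted p = 0.901). The count is over the whole gene, and reads per exon were not analysed here. All 9 microglia markers had reads in every library, with summed levels of 15100 CPM in the knockout and 19640 and 28860 CPM in controls 5 and 6, and the knockout lay below both controls in 8 of the 9. Reads of neuron markers were present as well, with 8 of them summing to 324 CPM in the knockout and 393 and 413 CPM in the controls. Stmn1 alone gave 176.5 CPM of that sum in the knockout and 197.5 and 209 CPM in the controls. In bulk RNA, fewer cells of a type and less RNA per cell cannot be told apart.

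Promoters of 6 of the 9 genes were searched, with starts from RefSeq for GRCm38.p6, and those of the other 3 were not searched. Of the 6 genes, 4 are shown because they contrast a CpG-poor start with the CpG-rich starts of the other flippase genes searched. Each line gives the 250 bases before the RefSeq start in the direction of transcription. Capitals mark matches on either strand to any of 9 motifs searched, namely PU.1 (GAGGAAGT), Sp1 (GGGCGG), NF-Y (CCAAT), the TATA box (TATAAA), NRF1 (GCATGCGC), AP-1 (TGANTCA), CRE (TGACGTCA), YY1 (AAGATGGC) and the E-box (CACGTG).
Atp8b4, chr2:126491554-126491803, minus strand: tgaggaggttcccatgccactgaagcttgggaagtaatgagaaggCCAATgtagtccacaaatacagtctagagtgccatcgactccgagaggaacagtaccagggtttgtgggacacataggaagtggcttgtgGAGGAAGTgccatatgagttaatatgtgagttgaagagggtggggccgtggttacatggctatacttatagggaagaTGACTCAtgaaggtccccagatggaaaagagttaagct
Atp8a1, chr5:67847432-67847681, minus strand: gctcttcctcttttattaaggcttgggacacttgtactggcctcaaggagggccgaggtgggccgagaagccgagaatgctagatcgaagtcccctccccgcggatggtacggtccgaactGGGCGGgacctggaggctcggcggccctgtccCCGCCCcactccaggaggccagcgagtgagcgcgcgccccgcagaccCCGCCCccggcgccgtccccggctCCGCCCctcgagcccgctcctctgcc
Atp11a, chr8:12756766-12757015, plus strand: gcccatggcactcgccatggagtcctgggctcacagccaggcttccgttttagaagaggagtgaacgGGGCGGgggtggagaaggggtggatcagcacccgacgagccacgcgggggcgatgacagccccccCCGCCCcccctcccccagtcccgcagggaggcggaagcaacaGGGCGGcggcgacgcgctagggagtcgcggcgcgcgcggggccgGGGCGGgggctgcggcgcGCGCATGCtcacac
Tmem30a, chr9:79793431-79793680, minus strand: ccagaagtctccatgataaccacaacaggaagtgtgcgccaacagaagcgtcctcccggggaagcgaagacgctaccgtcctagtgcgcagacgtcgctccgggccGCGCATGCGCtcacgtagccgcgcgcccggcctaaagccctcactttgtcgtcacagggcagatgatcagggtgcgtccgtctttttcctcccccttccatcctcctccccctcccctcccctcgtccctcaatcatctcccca

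Atp8b4 had 3 CpG dinucleotides in this window, and the median over all 32851 promoters searched was 6. Shares of all promoters given below are over the same 32851. Atp8a1 had 25, Atp11a 29, Atp11b 24, Tmem30a 22 and each of the starts of Atp8b2 19. The capitals in Atp8b4 are a match to PU.1, a transcription factor of the myeloid lineage, whose motif 2.44% of all promoters hold, a match to AP-1 (6.75% of all promoters) and a match to NF-Y (33.8%). This RefSeq start of Atp8b4 lies inside the gene span of the deposited tables, which ends at 126500674. The bases before that end were not searched. The Tmem30a start also lies inside its span, which ends at 79793507. The capitals in Atp8a1 are 4 Sp1 matches, a motif that 32.7% of all promoters hold at least once. The capitals in Atp11a are 4 Sp1 matches and, nearest the start, 1 match to NRF1, which 2.26% of all promoters hold. Atp11b, not printed, had 6 Sp1 matches, with overlapping copies counted separately. Tmem30a held 2 overlapping NRF1 matches on opposite strands. A match is a description of the letters and not evidence of binding.

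Among the flippase genes, Atp8a2 was the extreme case. Atp8a2 encodes a flippase of phosphatidylserine and phosphatidylethanolamine known for its role in neurons and photoreceptors. It had 0 knockout reads, against 677 in control 5 and 697 in control 6. The controls stood at 37.8 and 51.6 CPM, a mean of 44.7 ± 9.78 CPM (SD, n = 2). The floor of 3 knockout reads is worth 0.164 CPM, which puts the knockout at least 230.3-fold below control 5 and at least 314.5-fold below control 6. Floors and intervals cover counting error only, because PCR copies are not independent molecules.

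Atp8a2 had the highest control mean of the 162 tested genes with 0 knockout reads, and the next of these stood at 21.04 CPM. The gene (ENSMUSG00000021983) spans chr14:59647531-60197179 on the minus strand in the deposited tables. Annotated exons of genes on the opposite strand cover 1.496% of its exon bases within that span, and counts without strand cannot tell reads in that overlap apart. GENCODE M21 extends the gene beyond that span, and over the longer model the opposite-strand pseudogene Gm19716 covers 13.5% of exon bases and the same-strand gene Nupl1 1.56%. All 8 neuron markers had reads in the knockout library. The knockout lay below both controls in 5 of these, between them in 2 and above both in 1. Neurod6 had 41.8 CPM in the knockout against 81.7 and 65.1 CPM in controls 5 and 6, and Map2 had 24.3 against 40.5 and 45.1 CPM. Dcx had 31.6 against 12.1 and 35.6 CPM. Stmn2, the gene above both, had 9.25 against 3.02 and 7.26 CPM.

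The genes with the pattern most like that of Atp8a2 were Plekhh2, Myo18b, Tspan33, Gm10134 and Nlrp1a. Likeness was the Euclidean distance between the log2 CPM values of the 3 libraries after each gene was centred on its mean, and it rests on these 3 values. The distance was 0.888 for Plekhh2, 1.51 for Myo18b, 1.91 for Tspan33, 2.00 for Gm10134 and 2.05 for Nlrp1a. Plekhh2 had 0 reads in the knockout against 346 and 307 in the controls. Gm10134 had 27 reads in the knockout against 2235 and 1399 in the controls.

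Atp8a1, the paralog of Atp8a2 that also flips phosphatidylserine, kept measurable reads. It had 1229 knockout reads, against 2752 in control 5 and 2245 in control 6. In scaled levels this was 67.3 CPM in the knockout (95% exact Poisson interval 63.6 to 71.1) against 154 and 166 CPM in the controls. The knockout lay below both controls, which differed little from each other, with a log2 ratio of -1.19 over control 5, -1.31 over control 6 and 0.11 between control 6 and control 5. The fitted log2 fold change was -1.25. Of 9 microglia markers 8 lay below both controls as well, by unequal amounts, with log2 fold changes of -1.70 for Tmem119 and -0.22 for Fcrls, while Csf1r lay between the controls (-0.19). Their part in the lower flippase levels was not tested.

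The Atp11 genes did not share a direction. Atp11b, a flippase of recycling endosomes, had 73.2 CPM in the knockout (interval 69.4 to 77.3) against 103 and 114 CPM in the controls, a fitted log2 fold change of -0.57. Atp11a, a plasma membrane flippase that caspases cut in dying cells, had 17.8 CPM in the knockout (15.9 to 19.8) against 9.22 and 10.8 CPM in the controls, a log2 fold change of 0.83. The knockout thus lay below both controls for Atp11b and above both for Atp11a. Annotated opposite-strand exons cover 3.33% of the exon bases of Atp11a within its deposited span.

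Among the Atp8b genes, Atp8b4 was lower in the knockout than in both controls and Atp8b2 lay between them. Atp8b4, whose CpG-poor start inside the gene span is printed above, had 286 reads in the knockout against 344 and 291 in the controls. Its level was 15.7 CPM (13.9 to 17.6) in the knockout against 19.2 and 21.6 CPM. Atp8b2, a flippase of phosphatidylcholine, had 15.3 CPM (13.6 to 17.2) in the knockout against 7.21 and 16.4 CPM, so the controls differed from each other more than the knockout differed from control 6. Atp9b, a flippase of the trans-Golgi network that works without a Cdc50 subunit, had 29.7 CPM (27.3 to 32.3) in the knockout against 24.1 and 34.2 CPM and also lay between the controls.

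Tmem30a, the shared subunit, was unequal between the controls themselves. It had 1575 knockout reads, against 3223 in control 5 and 934 in control 6, or 86.2 CPM (82.0 to 90.6) against 180.0 and 69.2 CPM. The knockout lay between the controls, with a log2 ratio of -1.06 over control 5 and 0.32 over control 6. The fitted log2 fold change of -0.53 therefore has the direction of control 5 alone. Per kilobase of exon, Tmem30a stood at 0.748 of the summed level of 8 P4-ATPases (Atp8a1, Atp8a2, Atp8b2, Atp8b4, Atp10a, Atp10d, Atp11a and Atp11b) in the knockout, against 0.933 in control 5 and 0.306 in control 6.

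Xkr8, the scramblase, was highest in the knockout library. It had 283 reads there, against 27 in control 5 and 129 in control 6. Its level was 15.5 CPM (13.7 to 17.4) in the knockout against 1.51 and 9.56 CPM. The knockout lay above both controls, but the log2 ratio was 3.26 over control 5 and 0.69 over control 6, and control 6 stood 2.57 above control 5 on that scale. The mast cell and granule precursor markers showed the same order of libraries, with the 3 tested ones summing to 39.7 CPM in the knockout, 0 CPM in control 5 and 22.1 CPM in control 6. Another gene of that list, Ms4a2, is listed in the table with control 6 alone and had the opposite order there, with 2 knockout reads against 45. Genes listed with a single control had at most 4 knockout reads, so nothing is read from that order. Of all shared genes, 2696 had 0 reads in control 5, against 1219 in control 6 and 175 in the knockout. Keeping only shared genes leaves out genes low in the knockout, so its count of zeros is not comparable with those of the controls. The part of these zeros and of the mast cell and granule precursor markers in the Xkr8 result was not tested.

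**Figure D1:**
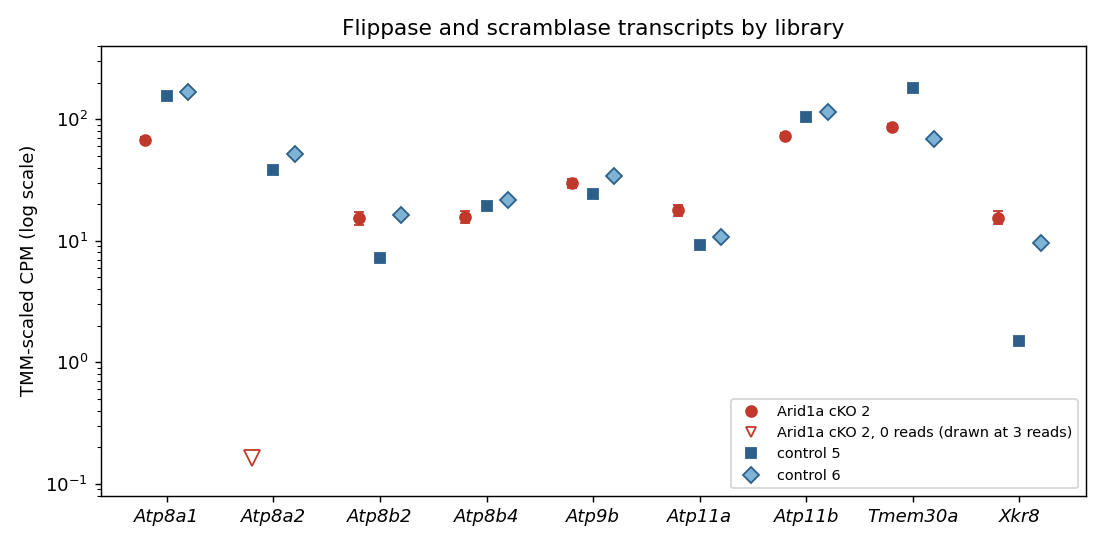
TMM-scaled CPM on a log axis for the 9 genes in Arid1a cKO replicate 2 (red circles, bars are 95% exact Poisson intervals), control 5 (squares) and control 6 (diamonds). Atp8a2 had 0 knockout reads and is drawn at 3 reads as an open triangle, while its controls stood at 37.8 and 51.6 CPM.

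Taking the 9 genes as a set, all of which passed the filter on low counts, the knockout library lay below both controls in 4, above both in 2 and between them in 3. Over the 15236 genes tested, 31.1% lay below both controls and 38% above both. These shares leave out genes listed with a single control, which had at most 4 knockout reads. At a 2-fold margin or more, 2 members (Atp8a1 and Atp8a2) lay below both controls, where 6.92% of tested genes did, and 0 lay above both, where 9.23% did. The median log2 fold change was -0.38 over the 9 genes and 0.05 over all genes tested. Because this contrast served in choosing the genes, nothing is read from these counts. The controls were 2-fold or more apart for 3 of the 9 genes (Tmem30a, Xkr8 and Atp8b2) and for 31.7% of all genes tested. Both controls entered the contrast used for the choice, so nothing is read from this comparison either.

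**Figure D2:**
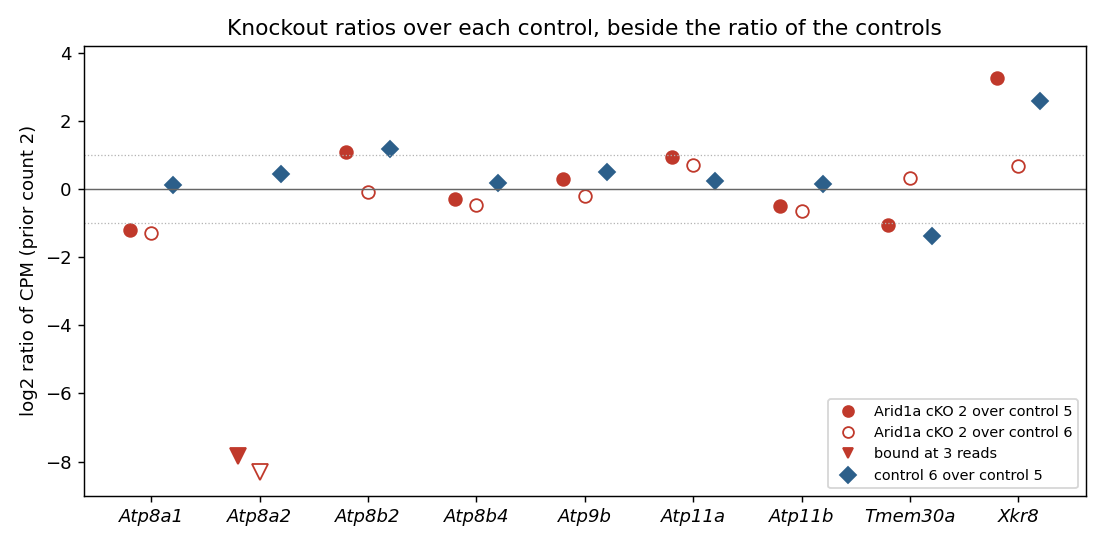
Log2 ratio of CPM for each gene, with the knockout over control 5 (filled red), the knockout over control 6 (open red) and control 6 over control 5 (blue diamonds), and dotted lines at 2-fold. Atp8a2 (triangles) is drawn at the bound for 3 knockout reads, and for Tmem30a, Xkr8 and Atp8b2 the controls differ from each other by 2-fold or more.

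Levels between genes were compared as CPM per kilobase of annotated exon within the deposited gene span. In the controls Tmem30a stood highest, at 22.1 ± 13.9 CPM per kb (SD, n = 2), followed by Atp11b (11.8 ± 0.820), Atp8a1 (11.2 ± 0.626), Atp8a2 (6.97 ± 1.52), Atp8b4 (3.06 ± 0.249), Atp9b (2.45 ± 0.5997), Atp8b2 (1.377 ± 0.757), Xkr8 (1.28 ± 1.32) and Atp11a (0.898 ± 0.102). The ranges of the 2 controls overlapped for the neighbours Tmem30a and Atp11b, Atp11b and Atp8a1, Atp8b2 and Xkr8, and Xkr8 and Atp11a. They did not overlap between Atp8a1 and Atp8a2, between Atp8a2 and Atp8b4, between Atp8b4 and Atp9b, or between Atp9b and Atp8b2. In the knockout library Tmem30a, Atp11b and Atp8a1 kept ranks 1, 2 and 3, while Xkr8 stood at rank 4 against rank 8 in the controls, and Atp8a2 at rank 9 against rank 4. The order depends on the exon lengths used, and transcripts with long annotated ends are scaled down most.

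Counts in both tables were used for 10 P4-ATPase genes, the 7 described above with Atp9a, Atp10a and Atp10d, and the sums and shares here are over these 10. Their summed level was 23.6 CPM per kb in the knockout against 36.4 and 43.4 in controls 5 and 6. Atp8a1 and Atp8a2 together made up 19.98% of that sum in the knockout, against 45.8% in control 5 and 45.4% in control 6. The other 8 genes summed to 18.9 CPM per kb in the knockout against 19.7 and 23.7 in the controls. Atp11a and Atp11b together stood at 9.58 CPM per kb in the knockout against 12.1 and 13.4 in the controls, or 40.6% of the sum over 10 genes in the knockout against 33.2% and 30.9%. These sums include the genes chosen for their difference and are given as a description.

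**Figure D3:**
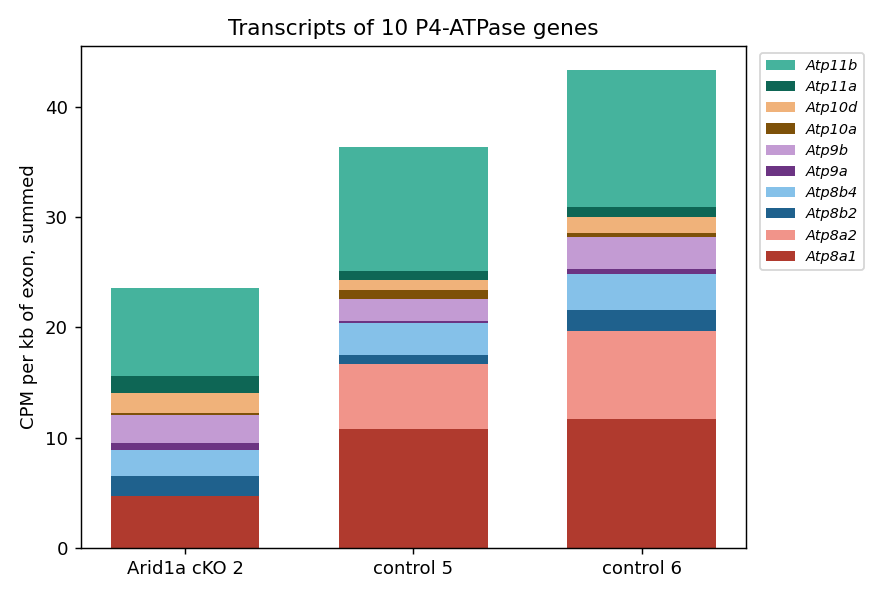
CPM per kilobase of exon, stacked over 10 P4-ATPase genes, in Arid1a cKO replicate 2, control 5 and control 6. The lowest pair of blocks (Atp8a1 and Atp8a2) sums to 4.71 in the knockout against 16.7 and 19.7 in the controls.

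Other genes that move or make these lipids were taken from 7 lists with 54 genes, of which 35 were tested. None passed edgeR's test in either direction (0 of 35, where 0.0394% of all genes tested passed), with 3 at an unadjusted p under 0.05, where 6% of all genes tested (914) stood, and DESeq2's Wald test called 2, both lower, where it called 1.41% of all genes. The knockout lay above both controls in 12, below both in 12 and between them in 11. The median log2 fold change was 0.0052, against 0.05 over all genes tested.

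The ABC lipid exporters, which held the 3 genes at the unadjusted threshold, lay below both controls in 4 of 8 tested genes and above both in 2. Abcg1, which exports sterols, had 626 CPM in the knockout against 1994 and 1310 CPM in controls 5 and 6 (log2 fold change -1.40, edgeR adjusted p = 0.477, DESeq2 adjusted p = 0.0141). Abcb1b, a broad-range exporter of lipids and drugs, had 12.6 CPM against 55.1 and 70.0 CPM (log2 fold change -2.31, edgeR adjusted p = 0.288, DESeq2 adjusted p = 0.00575). Abcb4, which exports phosphatidylcholine and was singled out after its values were seen, stood at 6.46 CPM against 21.9 and 20.0 CPM (edgeR adjusted p = 0.799, DESeq2 adjusted p = 0.617). The median log2 fold change of the list was -0.35. Abca1, which loads cholesterol and phospholipid onto apolipoproteins, had 201 CPM against 305 and 406 CPM, and Abca3 had 27.1 against 16.0 and 34.1 CPM. The genes above both controls, named after their values were seen, were Abcc1, with 9.80 CPM against 0.447 and 3.19 CPM (log2 fold change 2.43, edgeR adjusted p = 0.931), and Abca7, with 29.5 against 13.6 and 18.7 CPM.

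Among other scramblases and their relatives 8 of 19 genes were tested, with a median log2 fold change of 0.04. Ano6, the calcium-activated scramblase and the most abundant of them, had 98.0 CPM in the knockout against 89.4 and 145 CPM in controls 5 and 6, between the controls. Plscr3 had 29.8 CPM against 28.5 and 31.0 CPM, Plscr1 had 13.2 against 14.7 and 18.01 CPM, and Ano10 had 13.0 against 9.72 and 8.74 CPM. Of the scramblases of internal membranes, Vmp1 had 348 CPM against 481 and 383 CPM and Tmem41b had 35.2 against 31.7 and 48.0 CPM. Atg9a, a scramblase of autophagy vesicles, had 12.7 CPM against 0.503 and 11.04 CPM, so that control 5 stood apart as it did for Xkr8. Atg9b had 56 reads in the knockout against 0 in control 5 and 9 in control 6. Control 5 also had more shared genes at 0 reads than control 6 (2696 against 1219). The knockout's 175 is not comparable with these, since keeping only shared genes leaves out genes low in the knockout. The median of the 4 genes of internal membranes was 0.48.

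The partners and regulators list gave a median log2 fold change of -0.16 over 5 tested genes. Bsg, a chaperone that carries Xkr8 to the plasma membrane, had 513 CPM in the knockout against 592 and 553 CPM in controls 5 and 6, below both. Mon2, whose yeast relative acts with a Dopey protein in endosome to Golgi traffic, had 48.5 CPM against 64.5 and 73.9 CPM. The Dopey genes differed from each other, with Dop1a at 20.5 CPM against 31.1 and 18.6 CPM, between the controls, and Dop1b at 23.5 CPM against 19.2 and 18.2 CPM, above both.

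Genes for making phosphatidylserine and phosphatidylethanolamine had a median log2 fold change of -0.07 over 7 tested genes. Ptdss1, a phosphatidylserine synthase, had 65.03 CPM in the knockout against 45.8 and 82.5 CPM in controls 5 and 6. Cept1, which completes phosphatidylethanolamine and phosphatidylcholine, had 89.2 CPM against 114 and 94.4 CPM. Pcyt2 and Etnk1, enzymes of the ethanolamine branch, had 59.7 against 38.3 and 59.7 CPM and 42.7 against 45.9 and 51.7 CPM. Of 7 other P4-ATPases listed, 3 were tested, with a median of 0.59. Atp10d had 13.6 CPM against 7.21 and 10.97 CPM, Atp9a had 3.94 against 1.23 and 2.89 CPM, and Atp10a had 1.42 against 4.30 and 2.22 CPM.

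**Figure D4:**
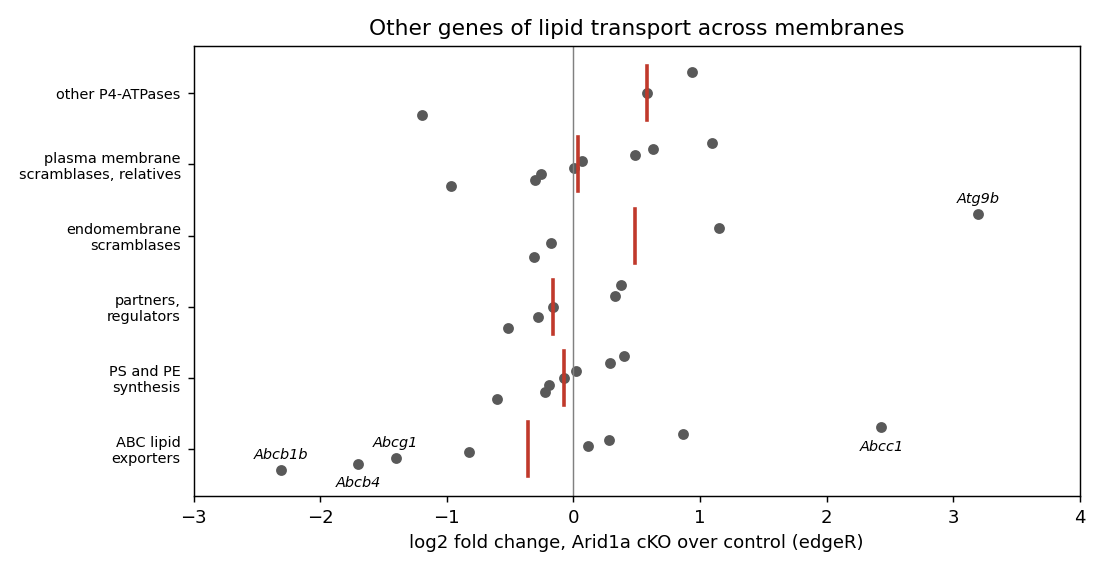
Fitted log2 fold change (Arid1a cKO over control, edgeR) of the 35 tested genes in 6 lists, 1 point per gene, with a red bar at each list's median and names given beyond 1.3 in either direction. No gene passed edgeR's test, and the ABC lipid exporters Abcb1b, Abcb4 and Abcg1 lie farthest to the left.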

How the data were processed

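The authors deposited 2 tables of raw read counts per gene, each holding the Arid1a cKO library and 1 control, and these deposited counts were used as they stand. The tools named are TopHat2 2.0.12 with Bowtie2 2.2.3, HTSeq 0.6.0 and the build mm9, per the submitters' processing notes. The deposited positions are not those of that build, since 89.9% of the IDs shared with GENCODE M21 have the identical position on GRCm38, so coordinates are on GRCm38. Strand handling is not given in the sources used here, and per the labels' protocols the libraries came from a TruSeq RNA kit.

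Counts of the 16655 shared genes were fitted with edgeR 4.0.16 in R 4.3.3 (filterByExpr, TMM, quasi-likelihood F test, Benjamini-Hochberg over 15236 genes, two-sided, threshold 0.05). With 1 knockout library the controls alone give the 1 residual degree of freedom, and the knockout is assumed to vary like them. Log2 ratios between libraries were taken with a prior count of 2. A fold against 0 reads is a bound at 3 reads in the knockout library. Intervals are at the 95% level, with TMM factors of 1.06, 0.963 and 0.981 for the knockout and controls 5 and 6.

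The 9 genes and all lists were chosen with earlier results of these data known. Named beside them were Arid1a, up to 4 of the most abundant tested genes per list, any that passed the test, and the 5 tested genes nearest to Atp8a2. Marker genes of 8 cell types were read as levels. DESeq2 1.42.0, other scalings and other low-count filters served as alternatives. Some listed genes are not reported here. Markers named singly were chosen after their values were seen. Promoters come from RefSeq, and motifs were matched by letters alone.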

Additional observations from a re-analysis of the deposited data

How the results depend on the processing

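Of 15236 genes, 6 passed edgeR's test. The count was 0 without the low-count filter and 0 with scaling by upper quartiles or by DESeq2 size factors. It was 44 with a minimum of 5 CPM in 2 libraries, 10 when genes of either table entered, and 215 with DESeq2's Wald test. At an unadjusted p under 0.05 the settings with 0 calls held 948 genes without the filter, 818 with upper quartiles and 895 with size factors. Among the 35 tested lipid transport genes the edgeR count was 0 under each of these edgeR settings, and DESeq2's Wald test called 2 (Abcb1b and Abcg1). The cause of these differences was not tested. All 36 values of the 9 genes under another scaling, without the low-count filter or from DESeq2 kept their sign, and apart from Atp8a2 they moved by at most 0.02 on the log2 scale. Atp8b2 had a log2 ratio of -0.095 without control replicate 5 and 1.08 without control replicate 6, against a fitted value of 0.38. Atp9b had -0.20 and 0.30 in the same order, against 0.03, and Tmem30a had 0.32 and -1.06, against -0.53, so the directions of these 3 rest on control 5. For Xkr8 the log2 ratio was 0.69 without control 5 and 3.26 without control 6, against 1.49. No paired analysis was possible because the knockout and control libraries share no replicate number. With 1 knockout library its own spread cannot be estimated, and at 27 reads the control 5 level of Xkr8 is the least precise value above 0 given for the 9 genes.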

Other observations

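Scramblase relatives were also listed in the table with control 6 alone, where control 5 has no value. Ano9 had 0 knockout reads against 29 in control 6, Xkr4 had 0 against 8 and Xkr9 had 0 against 6. The same knockout library was listed with each control, and genes listed with a single control had at most 4 knockout reads. A low knockout count thus goes with being listed in this way, and nothing is read from it.

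Markers of other cell types stood far below those of microglia. The 4 tested border macrophage markers summed to 256 CPM in the knockout against 249.8 and 226 CPM in controls 5 and 6, mostly from Mrc1. The 5 tested neural progenitor markers summed to 205 CPM against 138 and 137 CPM, with Vim at 102 CPM against 36.5 and 18.4 CPM. Nes, the other abundant one, had 97.0 against 96.97 and 113.2 CPM and lay between the controls. Of these 5, 3 lay above both controls, 1 below both and 1 between them. The 5 tested erythroid markers summed to 38.6 CPM against 37.6 and 44.4 CPM, the 5 endothelial markers to 26.5 against 39.3 and 36.5 CPM, and the 4 tested monocyte and neutrophil markers to 122 against 147 and 156 CPM.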
